A study of Mus musculus with 18 samples.

Results

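The genes described here encode the nuclear subunits of oxidative phosphorylation, followed complex by complex through the ovaries of young F1 mice. Symbols were taken by name: Nduf with a, b, c, s or v and a number (complex I), Sdha to Sdhd (II), Uqcr (III), Cox4 to Cox8 (IV) and Atp5 (V). A gene also needed a level of 1 FPKM or more in 3 or more of the 18 libraries, where FPKM is the number of fragments scaled by gene length and by the fragments counted in the library. The rule gave 84 of 30172 symbols, with 37 in complex I, 4 in complex II, 8 in complex III, 18 in complex IV and 17 in complex V, and 0 symbols of this kind failed the minimum. Gene lengths ran from 320 to 4137 bases, and the genes lay on 19 chromosomes.

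RNA came from whole ovaries of wild type C57BL/6J females at postnatal day 3 (Pd3), Pd7 and Pd21. Their mothers received a control diet (F1-Control) or a diet with 3% methionine, which raises homocysteine (F1-HHcy). By the labels that diet began 4 weeks before mating, while the study's methods give a longer lead, and it went on through gestation and lactation. The labels describe the pups as not treated directly. Each of the 6 groups of diet and day held 3 libraries. Pd3 and Pd7 were batch 1 and Pd21 was batch 2, so age and batch cannot be told apart for Pd21. The sources used here do not say how many pups made a library, so p-values measure only the spread between these libraries, which may be technical. Between 33630489 and 39399187 fragments per library lay on genes. All 13 oocyte markers and all 10 granulosa markers checked were above 0 in all 18 libraries. F1-Control Pd7 replicate 2 stood apart, with values that summed to 532003 against 400360 to 469733 in the other 17 libraries.

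Oxidative phosphorylation passes electrons from NADH and succinate to oxygen along the inner mitochondrial membrane. It uses the proton gradient so built across that membrane to make ATP. Complex I accepts electrons from NADH, complex II from succinate, complex III passes them to cytochrome c, complex IV reduces oxygen and complex V is the ATP synthase. Most subunits are nuclear, some of the catalytic cores are encoded in mitochondrial DNA, and complex II is wholly nuclear. The oocyte holds a very large store of mitochondria, and steroid synthesis in the somatic cells of the ovary also begins in mitochondria. Several subunits of complex IV and the ring subunit of the ATP synthase have isoforms made from separate genes, some of them best known from lung, muscle or testis.

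Promoter sequences are shown first, because many of these genes are known to share the activators NRF1, GABPA and YY1. RefSeq windows from 250 bases before to 50 bases after the gene start (build GRCm38.p6) were found for 69 of the 84 genes. Both strands were searched for exact copies of GCGCATGC (NRF1), CCGGAAG (GABPA) and ATGGCGGC (YY1). The NRF1 letters were in 14.5% of the 69 genes, against 3.05% of all 27025 genes with a window and 5.84% of the 10642 of those that were tested at Pd7. For GABPA the shares were 24.6%, 9.93% and 19.6%, and for YY1 they were 8.7%, 2.6% and 5.49%. All 6 genes with the YY1 letters belonged to complex I, where they made up 18.2% of 33 windows, while the GABPA letters were in 4 windows of complex I and in 6 of the 15 of complex V. In all, 28 genes held at least 1 of these motifs and 5 held motifs of more than 1 factor. These are matches of letters and not measured binding sites.

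The windows below belong to 3 complex I genes that fell at Pd7 and to Cox6a1, which holds motifs of both NRF1 and GABPA. They are written 5′ to 3′ on the strand of the gene with the motif letters in capitals. Ndufb6 (chr4:40279372-40279671, minus strand) holds the GABPA letters on the reverse strand, Ndufb7 (chr8:83566508-83566807, plus strand) holds them on the forward strand, and Ndufs7 (chr10:80249199-80249498, plus strand) holds the YY1 letters. The Ndufs7 window lies wholly inside the annotated gene, which begins at base 80249105, so it is not the window at that start. In Cox6a1 (chr5:115348909-115349208, minus strand) the first run of capitals is an NRF1 motif that overlaps its own copy on the other strand, and the next run is GABPA on the reverse strand.
Ndufb6: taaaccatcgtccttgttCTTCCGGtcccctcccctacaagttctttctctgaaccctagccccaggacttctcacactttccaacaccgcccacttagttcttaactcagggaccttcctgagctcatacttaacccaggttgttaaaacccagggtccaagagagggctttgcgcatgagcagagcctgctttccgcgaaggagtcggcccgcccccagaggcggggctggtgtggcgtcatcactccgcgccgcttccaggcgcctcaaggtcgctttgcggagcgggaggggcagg
Ndufb7: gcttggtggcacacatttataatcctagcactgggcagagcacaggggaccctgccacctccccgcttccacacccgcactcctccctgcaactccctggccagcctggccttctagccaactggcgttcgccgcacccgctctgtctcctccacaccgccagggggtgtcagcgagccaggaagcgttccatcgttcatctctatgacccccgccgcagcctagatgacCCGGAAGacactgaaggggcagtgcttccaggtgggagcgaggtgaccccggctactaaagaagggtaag
Ndufs7: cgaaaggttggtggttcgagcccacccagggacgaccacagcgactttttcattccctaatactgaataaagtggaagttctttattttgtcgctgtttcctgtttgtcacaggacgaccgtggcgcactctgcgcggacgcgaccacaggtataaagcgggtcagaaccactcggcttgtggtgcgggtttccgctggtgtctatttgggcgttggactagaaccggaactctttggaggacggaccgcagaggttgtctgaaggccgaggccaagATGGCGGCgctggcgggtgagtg
Cox6a1: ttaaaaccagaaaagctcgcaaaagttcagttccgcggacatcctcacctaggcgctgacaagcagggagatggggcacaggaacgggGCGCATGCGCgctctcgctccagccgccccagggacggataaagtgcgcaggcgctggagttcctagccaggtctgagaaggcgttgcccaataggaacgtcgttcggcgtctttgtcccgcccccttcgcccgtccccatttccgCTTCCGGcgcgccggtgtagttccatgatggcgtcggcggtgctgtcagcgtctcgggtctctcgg
Among the other genes that fell at Pd7, Atp5g1, Ndufa5 and Cox5a had a window with none of these letters.

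The 2 most abundant subunits of each complex are given first, as mean levels per length over the 18 libraries. They were 555 FPKM for Cox4i1 and 512 FPKM for Cox6c in complex IV, 445 FPKM for Atp5j2 and 440 FPKM for Atp5o in complex V, and 382 FPKM for Uqcrh and 224 FPKM for Uqcr10 in complex III. In complex I, Ndufa4 had 348 FPKM and Ndufa3 had 272 FPKM. Ndufa4 is counted here by its name, although its protein is now known to associate with complex IV. In complex II, Sdha, the flavoprotein that oxidizes succinate, had 103 FPKM and the membrane anchor Sdhd had 101 FPKM. At the other end stood isoforms of complex IV, with mean levels of 1.8 FPKM for Cox8c, 0.987 for Cox6a2, 0.772 for Cox8b and 0.345 for Cox7b2.

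To compare the whole set between the diets, the levels of the 84 genes were summed in each library. At Pd3 the sum was 14200 ± 1390 FPKM (SD, n = 3) in F1-Control and 13200 ± 647 in F1-HHcy. At Pd7 it was 16200 ± 4330 in F1-Control, with libraries from 13240 to 21180, and 11200 ± 739 in F1-HHcy, with libraries from 10440 to 11890. At Pd21 it was 12500 ± 1050 and 12600 ± 2510. The diet groups were thus fully apart only at Pd7, where the mean of F1-HHcy differed from that of F1-Control by -30.6%. With 3 libraries against 3, an exact 2-sided permutation test cannot go below p = 0.1, which was its value at Pd7, with 0.3 for Pd3 and 0.9 for Pd21. As a share of all FPKM in a library, the set took 3.29%, 3.98% and 3.02% in the F1-Control libraries at Pd7 and 2.66%, 2.7% and 2.58% in the F1-HHcy libraries. In whole ovaries, fewer cells of a type and less RNA per cell cannot be told apart.

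**Figure D1:**
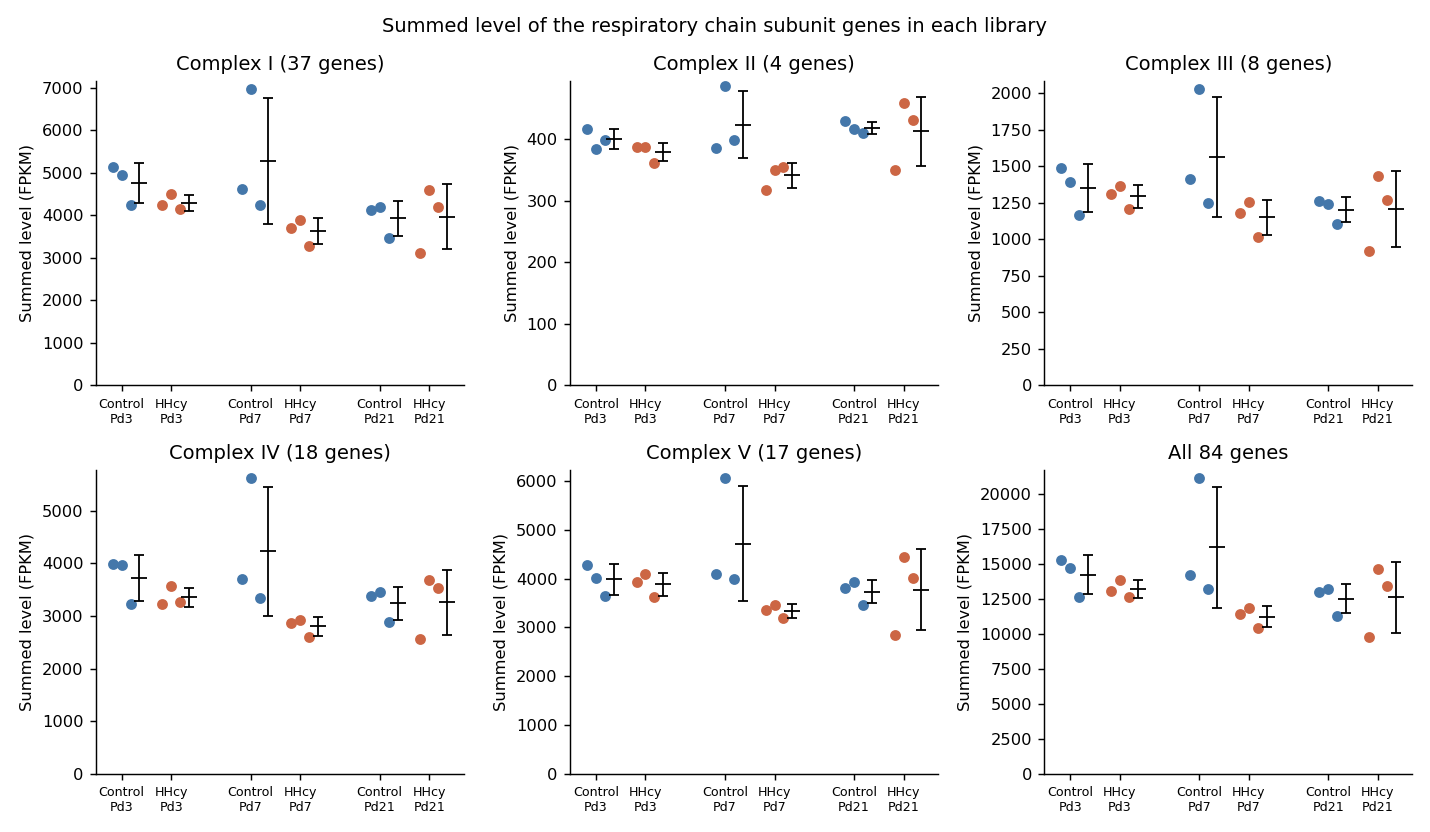
Summed level in FPKM of the subunit genes of complexes I to V and of all 84 genes, by day and diet. Each point is 1 library and the bars give the mean ± SD of 3 libraries; at Pd7 the F1-HHcy libraries of the whole set lie between 10440 and 11890 FPKM, below all 3 F1-Control libraries (13240 to 21180 FPKM).

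To find which genes carried the difference at Pd7, each gene was tested with limma on log2(FPKM + 1), with p-values adjusted by the Benjamini-Hochberg method over all 13299 genes tested. A fold change on this scale understates the change of genes with low levels. The estimate was lower in F1-HHcy for 80 of the 80 members tested, with a median log2 fold change of -0.50 and a range from -1.93 to -0.12, against a median of -0.0015 for all genes. At an adjusted p under 0.05, 8 members fell (10%, against 5.98% of all genes) and 0 rose (5.88% of all genes). At an unadjusted p under 0.05 the counts were 49 lower (61.2%, against 15.9%) and 0 higher (15.6% of all genes). In 49 members the libraries of the diets did not overlap, all of them lower in F1-HHcy (61.2%, against 19.5% of all genes), and 0 members were apart in the higher direction (19.5% of all genes). With the study's criterion of a change over 0.58 in log2 size and an unadjusted p under 0.05, 22 members were lower (27.5%, against 7.35% of all genes). The members Cox6a2, Cox7b2, Cox8b and Cox8c were below the minimum level in this comparison.

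Cox4i2, an isoform of the regulatory subunit 4 of cytochrome c oxidase that is known from lung and from oxygen sensing, had the smallest p. Its levels were 23.05, 31.59 and 10.57 FPKM in F1-Control and 3.952, 4.704 and 4.751 FPKM in F1-HHcy. The groups did not overlap, and the log2 fold change was -1.93 (SE 0.31, limma adjusted p = 0.00678). The more abundant partner Cox4i1 had 517.2, 878 and 514.6 FPKM in F1-Control and 397.4, 413.3 and 448.4 FPKM in F1-HHcy, a log2 fold change of -0.55 that did not pass (adjusted p = 0.146).

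Complex I held 4 of the 8 members that fell. Against 5.98% of all genes and 10% of all members tested, this was 10.8% of the 37 genes of complex I. Ndufb6, an accessory subunit of its membrane arm, had 64.11, 91.2 and 62.76 FPKM in F1-Control and 42.35, 44.26 and 40.37 FPKM in F1-HHcy, a change of -0.75 in log2 (SE 0.17, adjusted p = 0.0221). Ndufs7, a core subunit that carries an iron-sulfur cluster close to the quinone site, had 46.49, 70.75 and 51.36 FPKM in F1-Control and 32.84, 32.56 and 37.15 FPKM in F1-HHcy (log2 fold change -0.68, SE 0.17, adjusted p = 0.0343). In both genes every F1-HHcy library was below every F1-Control library, with F1-Control replicate 2 the highest. Ndufa5, an accessory subunit of the matrix arm, had 160.8, 238.6 and 131.2 FPKM against 99.97, 90.17 and 98.52 FPKM (log2 fold change -0.83, SE 0.21, adjusted p = 0.0353). Ndufb7, an accessory subunit on the intermembrane side, had 157.5, 265.9 and 172.9 FPKM against 108.8, 125.6 and 101.3 FPKM (log2 fold change -0.79, SE 0.21, adjusted p = 0.0397). The printed windows of Ndufb6, Ndufb7 and Ndufs7 were picked among genes that fell, so their motif letters show no link with the change. Ndufa5, which also fell, had none of the letters, and a link was not tested. Over the 37 genes of the complex the median log2 fold change was -0.485, and 24 were lower at an unadjusted p under 0.05, against 15.9% of all genes. Ndufa4 had 433.9, 638.1 and 302.4 FPKM in F1-Control against 263.9, 295.7 and 213.2 FPKM in F1-HHcy, a log2 fold change of -0.77 that did not pass (adjusted p = 0.0849).

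The other members that fell came from complexes III, IV and V. Uqcrq, a small subunit next to cytochrome b in complex III, had 78.24, 119.3 and 74.69 FPKM in F1-Control and 55.65, 56.86 and 49.3 FPKM in F1-HHcy (log2 fold change -0.71, SE 0.19, adjusted p = 0.0405). Cox5a, a matrix-side subunit of complex IV, had 22.93, 36.56 and 25.32 FPKM against 15.63, 15.26 and 19.39 FPKM (log2 fold change -0.70, SE 0.19, adjusted p = 0.0412). Again no F1-HHcy library reached the lowest F1-Control library. Atp5g1, one of the genes for the ring subunit c of the ATP synthase, had 95.42, 138.5 and 95.23 FPKM against 68.91, 62.69 and 68.35 FPKM (log2 fold change -0.69, SE 0.17, adjusted p = 0.0339). Cox6a1 followed closely, with a log2 fold change of -0.68 that did not pass (adjusted p = 0.0617).

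The medians of the complexes at Pd7 ranged from -0.565 in complex IV to -0.331 in complex II. Complex III had a median log2 fold change of -0.468 with 5 of 8 lower at an unadjusted p under 0.05, complex IV had 10 of 14, and complex V had -0.448 with 8 of 17, against 15.9% of all genes. In complex II, which stands in the citric acid cycle as well, the iron-sulfur subunit Sdhb had a log2 fold change of -0.46 (unadjusted p = 0.0276) and the anchor Sdhc one of -0.51 (unadjusted p = 0.0136). Sdha had -0.12 (unadjusted p = 0.463) and Sdhd had -0.20 (unadjusted p = 0.231), and 0 of the 4 passed the adjusted threshold. The difference between complexes was not tested. Summed levels went the same way in all complexes, for example 5280 ± 1480 against 3620 ± 310 FPKM in complex I and 424 ± 54.8 against 342 ± 20.5 FPKM in complex II (SD, n = 3).

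**Figure D2:**
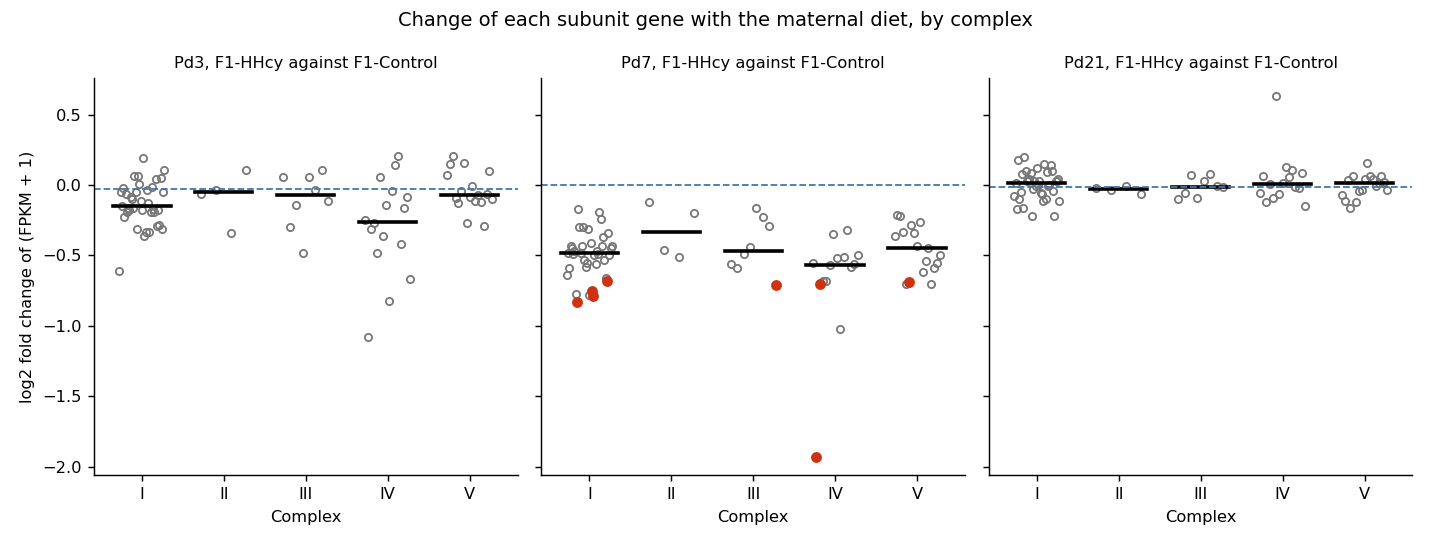
Log2 fold change (F1-HHcy against F1-Control) of each member, by complex, on each day. Each point is 1 gene, red where the adjusted p was under 0.05, the black bar is the median of the complex and the dashed line the median of all genes tested; at Pd7 all 80 points lie below 0, and at Pd21 41 lie below and 40 above.

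The library that stood apart carried part of this difference. Without F1-Control Pd7 replicate 2, 79 of the 80 estimates stayed negative and the median log2 fold change was -0.297, with 25 members lower at an unadjusted p under 0.05 (13.5% of all genes). Only Cox4i2 (log2 fold change -1.61, adjusted p = 0.0315), Ndufb6 (-0.57, adjusted p = 0.0357) and Atp5g1 (-0.51, adjusted p = 0.0472) then passed the adjusted threshold, where 2.54% of all genes were lower. Leaving out F1-HHcy replicate 1, 2 or 3 left 1 member of 80 each time, Cox4i2. Of all genes 1.96%, 2.27% and 3.22% were then lower. Without F1-Control replicate 3 the count was 17 (6.88% of all genes). With no filter on low levels 0 members passed (0.105% of all genes), Cox4i2 having an adjusted p of 0.0739.

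At Pd3 the same comparison gave smaller differences. The median log2 fold change of the 82 members tested was -0.11, against -0.0307 for all 13277 genes, with 63 estimates negative and 19 positive. With limma 0 members fell (1.43% of all genes) and 0 rose (1.64% of all genes) at an adjusted p under 0.05. At an unadjusted p under 0.05, 14 were lower (17.1%, against 12.6% of all genes) and 0 higher (9.78% of all genes), and limma-voom on the recovered fragments also gave 0 at the adjusted threshold and 14 lower at the unadjusted one. The libraries were apart in 16 members that were lower (19.5%, against 16.1% of all genes) and in 2 that were higher (11.8% of all genes), and 3 members met the study's criterion (3.66%, against 4.74% of all genes). Without F1-Control replicate 1 or F1-HHcy replicate 1 the unadjusted lower count was 7 (6.98% and 8.21% of all genes).

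The smallest p at Pd3 belonged to Cox7a1, the isoform of subunit 7A known from heart and skeletal muscle. It had 15.81, 10.13 and 11.95 FPKM in F1-Control and 5.817, 8.61 and 5.739 FPKM in F1-HHcy, a change of -0.82 in log2 (SE 0.2, unadjusted p = 0.00409, adjusted p = 0.0712 with limma). Sdhc had 103.1, 100.7 and 99.55 FPKM against 78.12, 78.7 and 81.9 FPKM, a change of -0.34 in log2 (SE 0.088, adjusted p = 0.0797). In both genes the groups did not overlap. Uqcrc1, a core protein of complex III, had 112.1, 115 and 113.4 FPKM against 72.93, 72.29 and 100.5 FPKM (log2 fold change -0.48, adjusted p = 0.109). Ndufa1, an assembly-critical subunit of complex I, had 227.3, 193.8 and 198 FPKM against 108.5, 131.1 and 171.3 FPKM (log2 fold change -0.61, adjusted p = 0.101). For these last genes F1-HHcy replicate 3 was the library nearest the controls. The list ended with Cox6a1 (log2 fold change -0.48, adjusted p = 0.0829) and Ndufb10 (-0.31, adjusted p = 0.109). Without F1-HHcy Pd3 replicate 3, 10 members passed the adjusted threshold, all lower, beside 12.3% of all genes.

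At Pd21 no member passed the test in either direction. The median log2 fold change of the 81 members tested was -0.000161 (all 13350 genes -0.0112), with 41 estimates negative and 40 positive. This split moved with the setting, to 19 negative and 62 positive with median-ratio scaling and to 9 and 72 without F1-HHcy replicate 1. In both directions limma called 0 members, at an adjusted p under 0.05 (2.23% of all genes lower and 0.0% higher) as at an unadjusted p under 0.05 (6.56% lower and 0.285% higher), and limma-voom also gave 0 in all of these. The smallest p was that of Cox6a2, the muscle isoform of subunit 6A, with 1.481, 1.558 and 0.3882 FPKM in F1-Control and 2.567, 1.338 and 2.889 FPKM in F1-HHcy (log2 fold change 0.63, unadjusted p = 0.0661, adjusted p = 0.836). Next came Ndufb10 and Ndufs7, both at a log2 fold change of -0.22, and then Ndufa11 (-0.17), Atp5d (-0.16) and Atp5j (0.16). F1-HHcy replicate 1 was the lowest library of its group in the summed level (9796 FPKM, against up to 14620 FPKM).

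To assess the course with age, Pd7 was compared with Pd3 within each diet, both days being in the same batch. These comparisons use the same libraries as those between diets, so they are not independent of them. In F1-Control the median log2 fold change of 81 members was 0.144 (all 13336 genes -0.0704), with 62 positive and 19 negative, and all 17 genes of complex V were positive with a median of 0.2. With limma 0 members fell (7.59% of all genes) and 0 rose (6.9% of all genes) at an adjusted p under 0.05. At an unadjusted p under 0.05, 3 were lower (18.5% of all genes) and 2 higher (13% of all genes), where limma-voom gave 0 at the adjusted threshold and 3 lower and 3 higher at the unadjusted one. By the study's criterion 7.77% of all genes were lower. With the replicate number as a block in limma, 2 members fell at the adjusted threshold, against 10.7% of all genes. They were Cox8c (adjusted p = 0.0131) and Cox4i2 (adjusted p = 0.0152). The labels give no pairs, and the block was taken from these same values, so these 2 calls are no separate support. Without F1-Control Pd7 replicate 2 the median turned to -0.0381, with 52 of 81 negative. Rescaled without mitochondrial and hemoglobin genes the median was -0.0147 (46 negative and 38 positive, all genes -0.215), and with the length trend removed it was 0.00736 (38 negative and 43 positive). The sign of the median thus depended on that library and on the scaling. All 8 immediate early genes, which respond to the handling of tissue, fell from Pd3 to Pd7 in F1-Control. Their sums were 292.6 to 346.4 FPKM at Pd3 and 44.68 to 87.07 FPKM at Pd7. Markers of cell types moved as well. At an unadjusted p under 0.05 all 9 erythroid markers were lower and all 7 smooth muscle markers higher. Of 13 oocyte markers 5 were lower and 6 higher. The part of these genes in the estimates was not tested.

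The estimates of single genes with age in F1-Control had both signs. Atp5c1, the central stalk of the ATP synthase, went from 132.7, 121.3 and 104.6 FPKM at Pd3 to 148, 194.3 and 156.9 FPKM at Pd7 (log2 fold change 0.47, SE 0.16, adjusted p = 0.0761). Cox8c, an isoform of subunit 8 known from testis, went from 4.356, 5.451 and 4.008 FPKM to 2.708, 3.268 and 0.9188 FPKM (log2 fold change -0.84, SE 0.28, adjusted p = 0.0765). In both the days did not overlap. Cox4i2 had a log2 fold change of -0.88 (adjusted p = 0.0924), Uqcrc1 of -0.45 (adjusted p = 0.0935), Sdhd of 0.34 (adjusted p = 0.128) and Ndufb5 of 0.43 (adjusted p = 0.164).

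In F1-HHcy the estimates ran the other way. The median log2 fold change of 81 members from Pd3 to Pd7 was -0.233 (all 13257 genes -0.0309), with 78 negative and 3 positive. With limma 0 members fell (0.0% of all genes) and 0 rose (0.0% of all genes) at an adjusted p under 0.05. At an unadjusted p under 0.05, 29 were lower (35.8%, against 12.7% of all genes) and 0 higher (10.8% of all genes), and limma-voom gave 0 at the adjusted threshold and 28 lower. The days did not overlap in 38 members that were lower (46.9%, against 16.1% of all genes), and 5.36% of all genes were lower by the study's criterion. Without F1-HHcy Pd3 replicate 2 the unadjusted lower count was 15 (7.37% of all genes) and without F1-HHcy Pd7 replicate 1 it was 16 (7.28%). Markers moved in this comparison too, with all 8 theca and steroidogenic markers higher at an unadjusted p under 0.05. Of 13 oocyte markers 8 were lower and 1 higher at that threshold, with 10 estimates negative and 3 positive. All 8 immediate early genes had negative estimates here as well, 3 of them at an unadjusted p under 0.05. Their sums in F1-HHcy were 234.3 to 2989 FPKM at Pd3 and 42.24 to 402 FPKM at Pd7. The part of these markers was not tested. Cox4i2 went from 10.21, 15.81 and 30.45 FPKM to the 3.952 to 4.751 FPKM given above, a change of -1.73 in log2 (SE 0.34, adjusted p = 0.0961). Ndufs6, a zinc-binding subunit of complex I, had a log2 fold change of -0.44 (adjusted p = 0.0971), Ndufb7 of -0.52 (adjusted p = 0.0995), Uqcrq of -0.44 (adjusted p = 0.106), Atp5e of -0.42 (adjusted p = 0.107) and Atp5g1 of -0.44 (adjusted p = 0.111).

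The order of the days is given as a description. In F1-Control 57 of the 84 genes had their highest mean at Pd7 and 59 their lowest at Pd21. Without F1-Control Pd7 replicate 2, 44 had their highest mean at Pd3 and 23 at Pd7, and 52 had their lowest at Pd21. In F1-HHcy 49 had their highest mean at Pd3 and 35 at Pd21, with 0 at Pd7, where 53 had their lowest.

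**Figure D3:**
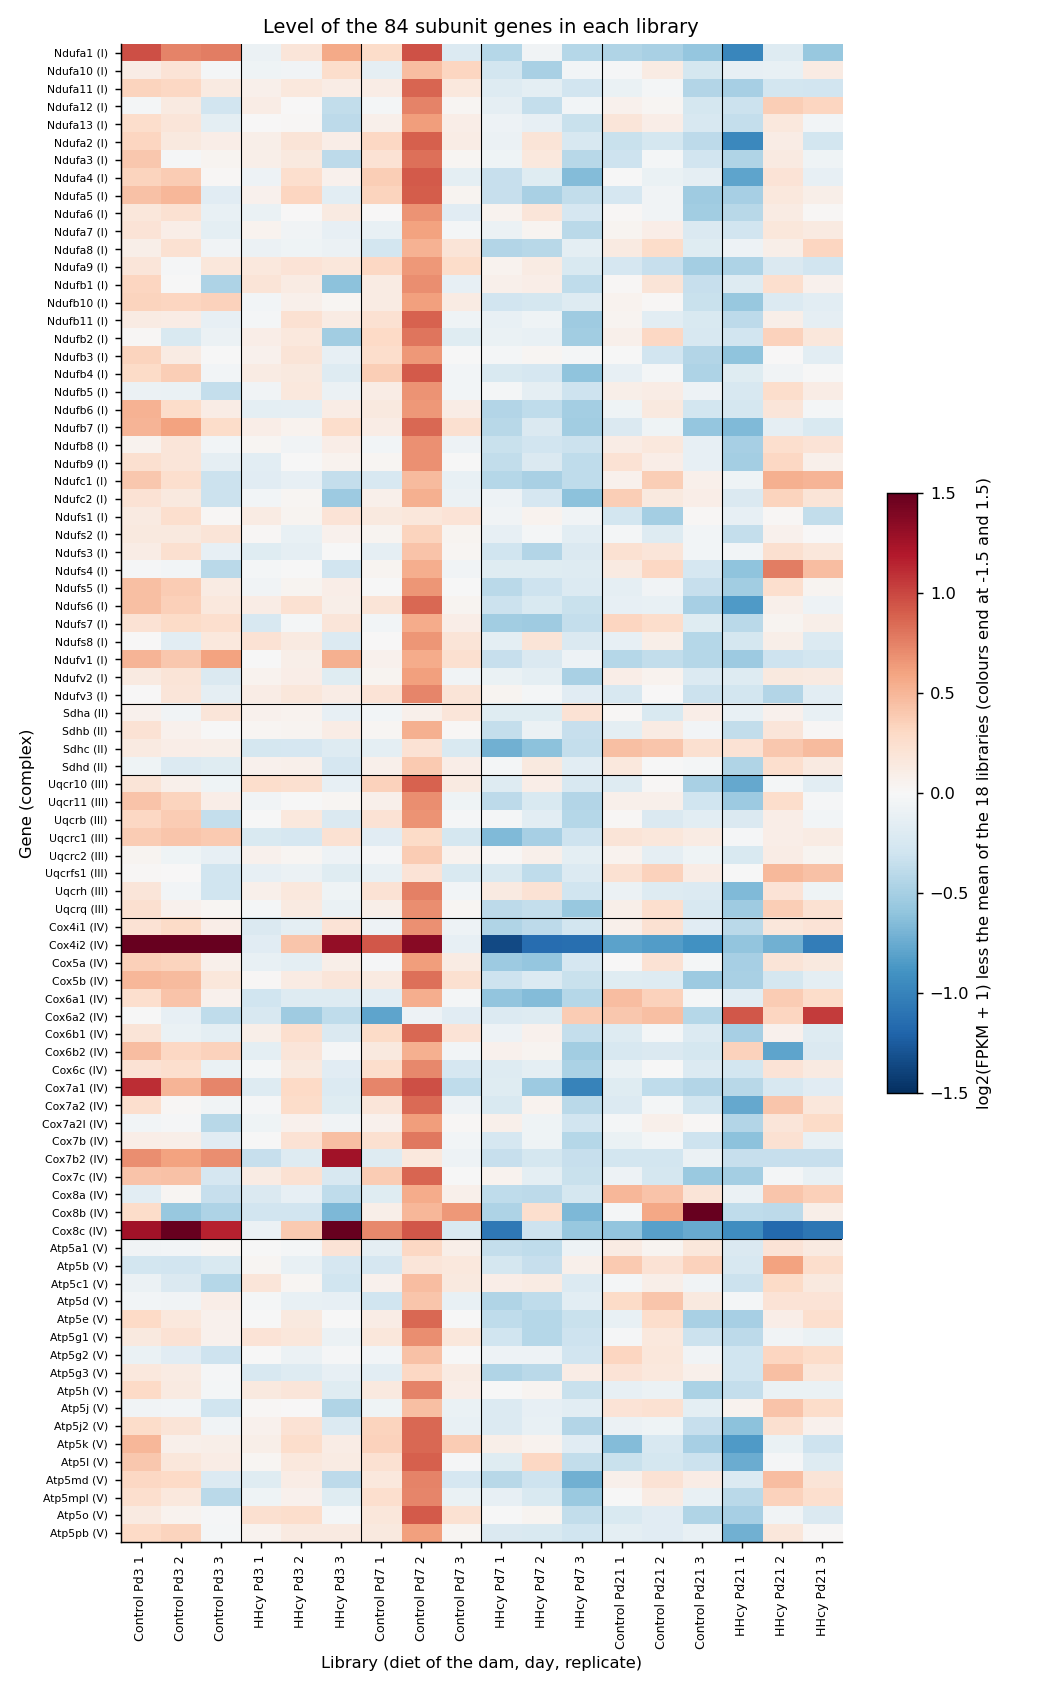
Level of the 84 genes (rows, by complex) in the 18 libraries (columns, by day and diet), as the deviation of log2(FPKM + 1) from the mean of the gene. The F1-HHcy libraries at Pd7 are low across complexes, and F1-Control Pd7 replicate 2 is the highest column.

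Whether the diet effect itself differed between Pd3 and Pd7 was tested as an interaction in a model of all 18 libraries. The estimate was negative, meaning a lower diet effect at Pd7, for 80 of 84 members, with a median of -0.402 (all 14607 genes 0.00689). With limma 0 members passed at an adjusted p under 0.05 in either direction (0.308% of all genes lower and 0.103% higher). At an unadjusted p under 0.05, 8 were lower (9.52%, against 7.33% of all genes) and 0 higher (6.48% of all genes). Without F1-Control Pd7 replicate 2 the median was -0.197 and 2 of 84 were lower, against 5.73% of all genes. Without F1-Control Pd7 replicate 3 there were 21, against 7.7% of all genes. The smallest p was that of Atp5g1 (interaction of -0.64 in log2, SE 0.22, unadjusted p = 0.0109, adjusted p = 0.235). A change at Pd7 that was absent at Pd3 is thus not shown for any single gene.

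The isoforms of complex IV were compared as shares of the summed FPKM of their family. Cox4i2 took 5.63% ± 0.177 (SD, n = 3) of subunit 4 in F1-Control at Pd3 and 3.29% ± 1.25 in F1-HHcy. At Pd7 it took 4.27%, 3.47% and 2.01% in the F1-Control libraries and 0.985%, 1.13% and 1.05% in the F1-HHcy libraries. At Pd21 the means were 1.06% ± 0.108 and 1.22% ± 0.495. The groups were apart at Pd3 and Pd7 and overlapped at Pd21, and the F1-HHcy share at Pd7 was near that of both diets at Pd21.

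Other low isoforms showed part of this course. Cox7a1 took 3.36% ± 0.636 against 1.74% ± 0.238 of subunit 7A at Pd3 and 2.14% ± 0.759 against 1.24% ± 0.326 at Pd7, where its log2 fold change of -1.02 did not pass (adjusted p = 0.073) and the libraries overlapped. Cox8c had 2.708, 3.268 and 0.9188 FPKM in F1-Control at Pd7 and 0.06159, 0.8121 and 0.5102 FPKM in F1-HHcy. Cox7b2, another isoform known from testis, had 1.046, 0.9248 and 1.049 FPKM in F1-Control at Pd3 and 0, 0.1027 and 2.03 FPKM in F1-HHcy. For Cox4i2, Cox8c and Cox7b2 at Pd3, F1-HHcy replicate 3 was much higher than the other F1-HHcy libraries. The share of Cox6b2 in subunit 6B was 13.3% against 10.3% at Pd3 and 9.05% against 10.4% at Pd7, and that of Cox6a2 stayed under 1% in the mean of each group.

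The common isoforms had negative estimates at Pd7 that did not pass the adjusted threshold. Their log2 fold changes were -0.57 for Cox6b1, -0.51 for Cox7a2, -0.58 for Cox7b, -0.50 for Cox8a and -0.32 for Cox7a2l, which is known as a supercomplex factor. The less abundant Cox6b2 had -0.35. In the ATP synthase, Atp5g1 took 18.2% ± 1.03 of the ring subunit transcripts in F1-Control at Pd7 and 14.4% ± 0.702 in F1-HHcy, where Atp5g2 had a log2 fold change of -0.28 and Atp5g3 of -0.34. These genes encode the same mature protein, and at Pd3 the Atp5g1 shares were 18% and 17.9%.

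**Figure D4:**
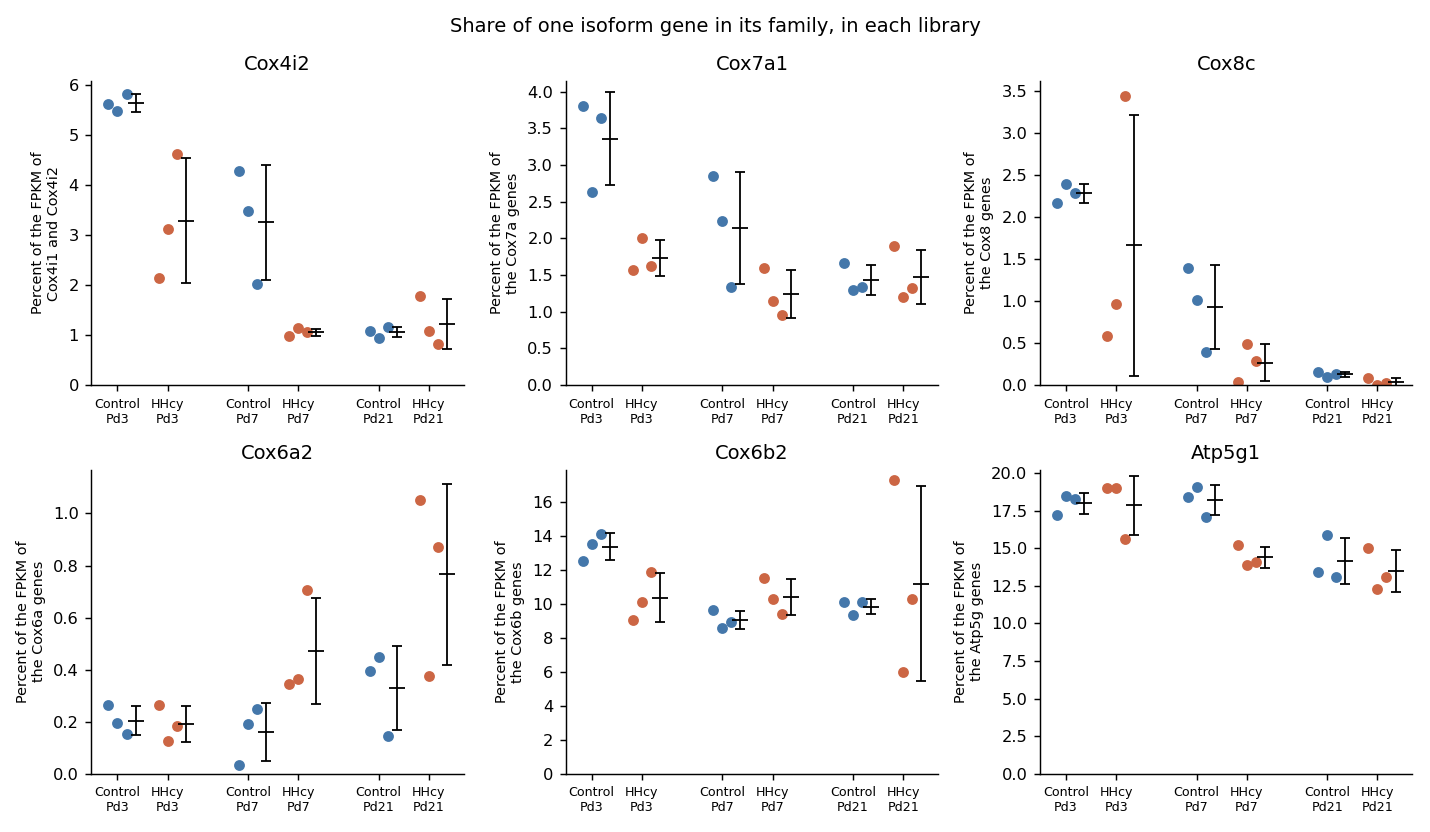
Share in percent of the summed FPKM of its family taken by Cox4i2, Cox7a1, Cox8c, Cox6a2, Cox6b2 and Atp5g1, by day and diet. Each point is 1 library with the mean ± SD of 3; Cox4i2 is at 5.63% in F1-Control at Pd3 and at 1.05% in F1-HHcy at Pd7.

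Genes that work with these subunits were examined at Pd7 from lists set by function, to be read against the 5.98% of all genes that were lower at an adjusted p under 0.05 and the 15.9% at an unadjusted one. Of 75 mitochondrial ribosomal protein genes, which make the translation machinery for the mitochondrial subunits, 5 fell (6.67%) and 36 were lower at an unadjusted p under 0.05 (48%), with a median log2 fold change of -0.358. Mrpl55 had a log2 fold change of -0.70 (adjusted p = 0.0275) and Mrpl54 of -0.86 (adjusted p = 0.0331). The 81 cytosolic ribosomal protein genes tested had a median of -0.0993, and 1 fell. Among assembly factors, 1 of 18 for complex I fell (Tmem126a, -0.59, adjusted p = 0.0464), 1 of 4 for complex II (Sdhaf1, -0.63), 2 of 6 for complex III (Lyrm7, -0.93, and Uqcc2, -1.01), 1 of 20 for complex IV (Cmc2, -0.67) and 0 of 5 for complex V. Of 7 subunits and carriers outside the name rule, 1 fell (Higd2a, -0.60). These counts of 1 at the adjusted threshold were near the share of all genes or too small to set against it. At an unadjusted p under 0.05, 3 of 18 were lower for complex I assembly (16.7%) and 2 of 4 for complex II. For complex III 2 of 6 were lower, for complex IV 5 of 20 (25%) and for complex V 0 of 5. Outside the name rule 3 of 7 were lower (42.9%). Most estimates in each list were negative, from 12 of 18 for complex I to 18 of 20 for complex IV and 5 of 5 for complex V.

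Known regulators of the subunit genes were tested at Pd7 too. Of all genes, 5.98% were lower and 5.88% higher at an adjusted p under 0.05, and 15.9% were lower at an unadjusted one. Of 17 regulators, 0 fell and 1 rose, the nuclear receptor Esrrb (log2 fold change 0.98, adjusted p = 0.038), while Tfam, which maintains mitochondrial DNA, had -0.41 (unadjusted p = 0.0106). Of 13 enzymes of the citric acid cycle 0 fell at the adjusted threshold and 3 were lower at an unadjusted p under 0.05 (23.1%). Of 17 genes for mitochondrial mass and import 1 fell (5.88%, Vdac3, a channel of the outer membrane, -0.59, adjusted p = 0.0495). In that list 5 were lower at an unadjusted p under 0.05 (29.4%), and 16 estimates were negative and 1 positive. Of the 13 mitochondrially encoded subunits 1 fell (ND3, -1.08, adjusted p = 0.0176), and ND6 had 0.70 (unadjusted p = 0.0135, adjusted p = 0.0767). Their median was -0.188, with 9 negative and 4 positive.

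Markers of cell types moved with the diet at Pd7 as well, and their part in the result was not tested. Of 13 oocyte markers 7 fell and 2 rose, with summed levels of 1485 to 2343 FPKM in F1-Control and 974.9 to 1478 FPKM in F1-HHcy. All 8 theca and steroidogenic markers rose, from 234.5 to 472.1 FPKM summed in F1-Control to 1181 to 1236 FPKM in F1-HHcy. Of the 6 erythroid markers tested 5 fell, with 928 to 5993 FPKM against 288.3 to 504.4 FPKM, and of 10 granulosa markers 0 fell and 2 rose. At Pd3 2 of the 13 oocyte markers rose (Gdf9 and Zp3) and 0 fell, with 5 lower and 6 higher at an unadjusted p under 0.05 and a median log2 fold change of -0.209, and all 9 erythroid markers fell, with 4061 to 11950 FPKM against 802 to 1112 FPKM. All 8 immediate early genes had positive estimates at Pd3, 0 of them at an unadjusted p under 0.05. Their sums there were 292.6 to 346.4 FPKM in F1-Control and 234.3 to 2989 FPKM in F1-HHcy. At Pd7 6 of the 7 tested were positive and 1 was lower at an unadjusted p under 0.05. The sums there were 44.68 to 87.07 FPKM against 42.24 to 402 FPKM. At Pd21, where no member passed, 6 of 8 markers of multiciliated and oviduct epithelium fell. Scaling without mitochondrial and hemoglobin genes moved the Pd7 median of all genes to 0.114 and that of the members to -0.376. The difference between them was -0.49, against -0.494 as deposited. Such scaling applies the same factor to all genes of a library, so members and all genes move nearly alike. This difference was therefore close to fixed in advance and tells nothing of the part of those genes.

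Gene length moved with the diet effect too. At Pd7 the median log2 fold change of all genes shorter than 700 bases was -0.282, and it was 0.0214 between 3000 and 5000 bases. The members of the same lengths had -0.559 (35 genes) and -0.26 (3 genes), both below the medians of all genes. Nearer to the members in level, the genes of these lengths over a level of about 31 FPKM had medians of -0.413 and -0.0806, which left smaller gaps. With the length trend over all genes removed, 74 of 80 estimates at Pd7 were negative and the median was -0.229. At an adjusted p under 0.05, 9 members were then lower, against 7.02% of all genes. The part of length in the result was not otherwise tested.

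**Figure D5:**
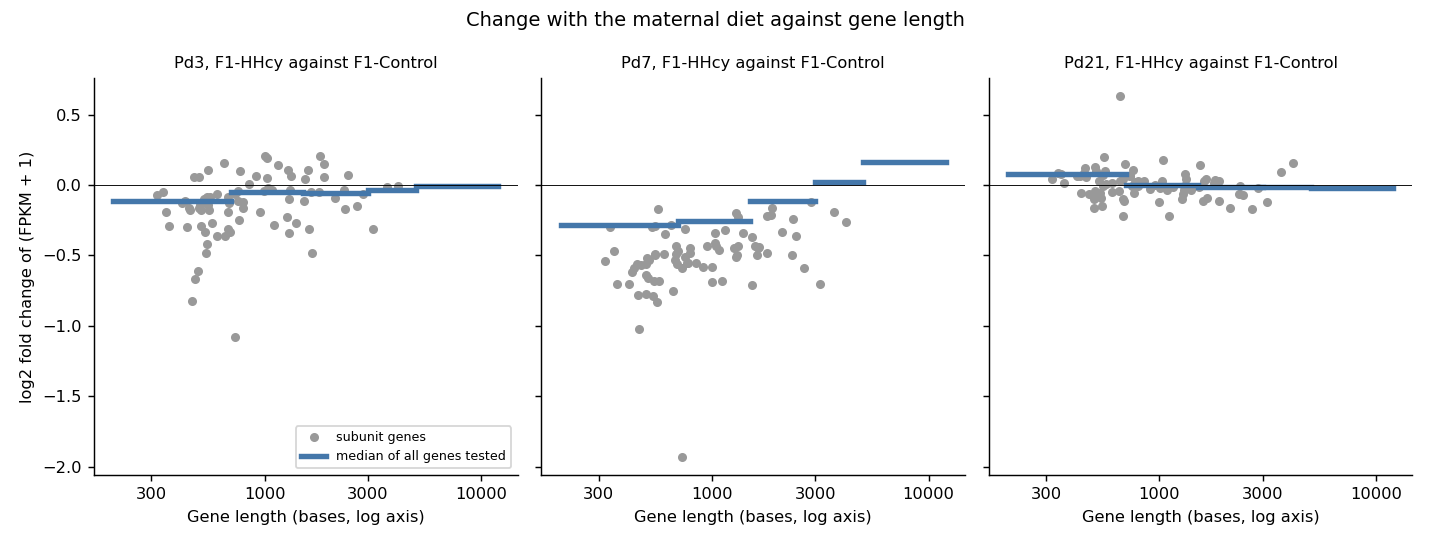
Log2 fold change (F1-HHcy against F1-Control) of each member against gene length in bases (log axis), with the median of all genes tested in each length bin as a line. At Pd7 the median of all genes goes from -0.282 below 700 bases to 0.162 at 5000 bases or more, and the members lie lower, at -0.559 below 700 bases.

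Some of these genes have near-identical annotated pseudogenes that could share fragments. Of 81 members found in the annotation, 17 had a copy of at least 95% identity over at least 200 bases, with up to 8 for Atp5l. The median log2 fold change at Pd7 was -0.52 for these 17 and -0.49 for the 60 tested members without one. The levels of genes with copies are uncertain.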

How the data were processed

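RNA was measured by poly-A selected, stranded RNA-seq of whole ovaries. The sources used here do not state the unit of the values; what the authors deposited was taken as FPKM, because scaling by a length per gene and a total per library gave whole fragments (99.989% of 27294 genes, tolerance 0.004). The submitters' processing notes name FastQC 0.11.9, Trimmomatic 0.39, STAR 2.7.9a, featureCounts 2.0.1, DESeq2 1.36.0 and the build GRCm38 (mm10). Depth, 33630489 to 39399187 fragments per library, limits the rarest isoforms.

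Tests used limma 3.58.1 in R 4.3.3 (trended variance) on log2(FPKM + 1), with genes at 1 FPKM or more in at least 3 of the 6 libraries of a comparison (of 18 for the interaction) and Benjamini-Hochberg adjustment over all genes. Tables and exact tests used Python 3.11.15 with pandas 2.3.3, numpy 2.4.6 and scipy 1.17.1, plots matplotlib 3.10.9, and pseudogene matches BLAST 2.17.0. The test was tried on simulated data. Groups came from the labels.

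Members and lists were chosen with earlier results of these data known. Genes named were the 2 most abundant members of each complex, the 6 of smallest p per comparison, isoform families, Sdha to Sdhd and Ndufa4, with the 2 of smallest p in other lists. Same-numbered libraries deviated together for Pd7 against Pd3 in F1-Control (correlations 0.134, 0.262 and 0.292), so a block of the numbers was tried. The labels give no pairs, and a match read from these data cannot show that pairs exist. Alternatives were limma-voom, another pseudocount, no filter, median-ratio scaling, scaling without mitochondrial and hemoglobin genes, 1 model of all libraries, the replicate block and leaving out each library.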

Additional observations from a re-analysis of the deposited data

Results flagged for a closer look

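The results below were set apart because every library of one contrast moved one way and every library of the other the opposite way, a rule that does not test the difference. Atp5g2, a gene for the ring subunit of the ATP synthase, had a diet effect of 0.16 (log2) at Pd3 and of -0.28 at Pd7. Its interaction did not pass (limma unadjusted p = 0.0882, adjusted p = 0.419).

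Ndufa9, a subunit of complex I, had a change from Pd3 to Pd7 of 0.30 in F1-Control and of -0.20 in F1-HHcy. Its levels went from 102.6, 88.95 and 101.7 FPKM to 112.4, 142.5 and 109.6 FPKM in F1-Control, and from 100.7, 104.4 and 101.4 FPKM to 93.35, 98.25 and 76.89 FPKM in F1-HHcy. Ndufv3, a small subunit of the same complex, had 0.36 in F1-Control and -0.19 in F1-HHcy. The interaction, which is the same contrast, had an unadjusted p of 0.0146 (adjusted p = 0.257, limma) for Ndufa9 and of 0.0171 (adjusted p = 0.271) for Ndufv3.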

How the results depend on the processing

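No value past the threshold changed sign under an alternative that was run. Counts are of members at an adjusted p under 0.05 ("adjusted") or an unadjusted p under 0.05. A percentage after a lower count is the share of all genes that were lower in that setting. At Pd7 the adjusted lower count was 18 with 1 model of all libraries (6.97%) and 2 with median-ratio scaling (4.95%). It was 0 with no filter (0.105%, Cox4i2 adjusted p = 0.0739) and 20 with the replicate block (6.91%). The study's criterion in its place gave 22 (7.35%). The unadjusted lower count was 27 with median-ratio scaling (15.1%) and 22 without the length trend (16.1%), where the median was -0.229. At Pd3 the study's criterion in place of the adjusted threshold gave 3 lower (4.74%). The unadjusted lower count was 7 with all libraries (11.3%), 9 with median-ratio scaling (11.5%) and 8 without the length trend (10.8%, and 1 member higher). At Pd21 the unadjusted count was 1 lower (7.8%) and 1 higher with all libraries and 2 lower with no filter (6.14%). It was 1 lower after rescaling (6.69%), and 1 higher with median-ratio scaling or without the length trend. For Pd7 against Pd3 in F1-Control the adjusted lower count was 1 with no filter (1.4%) and 2 with the replicate block (10.7%). It was 5 without the length trend (9.34%, and 1 member higher) and 3 after rescaling (7.84%). The study's criterion in its place gave 2 (7.77%). The unadjusted lower count was 11 without the length trend (17.6%) and 8 after rescaling (22.7%). The unadjusted higher count was 5 with all libraries, 6 with the block and 6 without the length trend. In F1-HHcy the adjusted lower count was 2 with all libraries (3.18%), and the study's criterion in its place gave 2 (5.36%). The unadjusted lower count was 14 with all libraries (14.0%) and 17 without the length trend (11.3%). The block gave 14 lower for the interaction at an unadjusted p under 0.05 (7.35%). The causes were not tested. Each library was also left out in turn. Ranges in brackets are the shares of all genes that were lower over the same runs, and their ends need not be the same run. At Pd3 this gave 0 to 10 adjusted lower (0.0% to 12.3%) and 7 to 21 unadjusted lower (6.98% to 21.0%). There 0 to 1 were higher unadjusted (9.78% of all genes with every library kept), and medians ran from -0.188 to -0.0486. At Pd7 it gave 1 to 17, 24 to 58 and medians from -0.616 to -0.297, and at Pd21 0 to 5 unadjusted higher and medians from -0.108 to 0.143. In F1-Control with age it gave 0 to 4 adjusted lower, 0 to 9 lower and 0 to 10 higher unadjusted, and medians from -0.0381 to 0.277, in F1-HHcy 0 to 1, 15 to 28 and -0.27 to -0.181, and for the interaction 2 to 21 and -0.483 to -0.197. Outside F1-Control with age, same-numbered libraries did not all deviate together (correlations from -0.338 to 0.123), so the block there shares only a number. The length trend, and the interaction and the order of days without single libraries, were chosen after seeing the data. With 3 libraries a group, low isoforms such as Cox8c and Cox7b2 were the least certain.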
